A study of Mus musculus with 12 samples.

Results

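Genes that mark microglia, the resident macrophages of the brain, were followed in chromatin from sorted neurons: Cx3cr1, P2ry12, Csf1r, Tmem119, Aif1, Spi1, C1qa, C1qb, C1qc and Trem2. They were taken by name, 10 of the 21887 protein-coding genes in the gene table, and all 10 were matched by symbol. Microglia descend from yolk-sac macrophage precursors, depend on signals through the Csf1r receptor, and keep their identity under the transcription factor PU.1, the product of Spi1. In the cortex they survey synapses and tag some of them with the complement protein C1q. Microglia lack the neuronal nuclear protein NeuN, so a NeuN sort is meant to leave them out.

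Accessible regions had been mapped by ATAC-seq, an assay that reads where a transposase can cut open chromatin, in adult male C57BL/6 mice aged 10 to 12 weeks. All mice had been fear-conditioned with 3 tone and shock pairings. A day later, extinction (EXT) mice heard 60 tones in a new context, and retention control (RC) mice spent equal time there with no tone. Infralimbic prefrontal cortex was taken straight afterwards, tissue of 5 mice was pooled per library, and 50000 cells positive for NeuN and for the activity-induced protein Arc were used. The groups thus share strain, sex, conditioning and sort, and differ in the tones. Whole-genome peak lists of EXT replicate 1, EXT replicate 2 and RC replicate 3 were analysed, with 80735, 123375 and 97961 peaks from 65002147, 57663722 and 73835799 tags. The lists of RC replicates 1 and 2, as held here, end on chromosome 1, which carries none of the 10 genes. With 2 EXT lists and 1 RC list, no test between the groups was made, and all values describe single libraries, each a pool of mice.

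Marker genes of neurons were described first. Their lists were chosen with earlier results of these data known, so they are no independent check of the sort. A gene was counted as open at its start when a peak overlapped the 1 kb either side of it, here called the start window. Of 10 pan-neuronal genes, 9, 9 and 7 had such a peak in EXT replicate 1, EXT replicate 2 and RC replicate 3, among them Syt1, Snap25 and Tubb3 in all 3 lists. Of 10 excitatory neuron genes, 7, 9 and 9 had 1, with Slc17a7, Camk2a and Tbr1 in all 3. Inhibitory neuron genes went the other way, with 2, 4 and 2 of 10. The shares over all protein-coding genes were 50.4%, 57.5% and 52.6%, above the inhibitory neuron shares in each list. Rbfox3, the gene of NeuN itself, had a start-window peak in EXT replicate 2 only.

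The start of a gene was read from the strand that the RefSeq promoter table gives. For Csf1r, Tmem119, Spi1 and C1qa no strand was taken from the table, and either end of the gene counted. The same rule was applied to all protein-coding genes, of which 17492 (79.9%) had a strand. Promoter sequences of 6 of the 10 genes were matched in the RefSeq table (GRCm38.p6, the build mm10). Printed below are 4 of them, each from 250 bases before to 50 bases after the start, 5′ to 3′ on the strand of the gene. Trem2 is shown because it had the single start that a peak covered, and C1qc because the most recurrent accessible region of the complement locus lay just before it. Cx3cr1 and P2ry12 are shown because they define microglia and had no start-window peak in any list. Capitals mark the PU box GAGGAA, a core to which PU.1 is known to bind, or its reverse complement TTCCTC.
Trem2, chr17:48346151-48346450, plus strand: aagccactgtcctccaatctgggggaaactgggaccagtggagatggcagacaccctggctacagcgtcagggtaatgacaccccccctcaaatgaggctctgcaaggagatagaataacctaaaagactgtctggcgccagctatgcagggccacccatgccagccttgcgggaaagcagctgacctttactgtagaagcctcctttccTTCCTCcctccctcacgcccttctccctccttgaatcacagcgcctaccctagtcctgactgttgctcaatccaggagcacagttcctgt
C1qc, chr4:136892865-136893164, minus strand: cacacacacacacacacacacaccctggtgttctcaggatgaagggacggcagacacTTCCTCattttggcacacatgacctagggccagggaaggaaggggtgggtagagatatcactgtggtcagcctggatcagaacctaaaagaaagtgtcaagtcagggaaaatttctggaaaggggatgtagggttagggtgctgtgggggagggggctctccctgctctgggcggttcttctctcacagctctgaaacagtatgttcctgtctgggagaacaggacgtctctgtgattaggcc
Cx3cr1, chr9:120068247-120068546, minus strand: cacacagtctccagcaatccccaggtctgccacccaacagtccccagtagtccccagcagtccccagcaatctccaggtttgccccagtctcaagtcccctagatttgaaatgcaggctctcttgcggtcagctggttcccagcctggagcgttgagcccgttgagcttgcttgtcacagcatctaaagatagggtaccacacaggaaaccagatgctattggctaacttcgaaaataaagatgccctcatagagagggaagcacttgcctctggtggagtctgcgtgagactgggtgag
P2ry12, chr3:59262936-59263235, minus strand: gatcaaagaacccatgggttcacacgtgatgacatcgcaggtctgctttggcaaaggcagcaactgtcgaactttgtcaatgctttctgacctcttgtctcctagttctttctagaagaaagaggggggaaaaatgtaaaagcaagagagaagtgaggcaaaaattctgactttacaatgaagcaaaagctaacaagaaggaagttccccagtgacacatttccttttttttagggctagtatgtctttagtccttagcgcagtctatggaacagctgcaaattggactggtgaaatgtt

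Both strands were searched for the PU box. It was found in 4 of the 6 promoter windows (66.7%), those of Trem2, C1qc, C1qb and Aif1, with 1 match each, against 27.4% of 21263 windows of protein-coding genes of the same length. The Cx3cr1 and P2ry12 windows held none of these 6 letters in order. The Trem2 match began 40 bases before the start and lay under the EXT replicate 1 peak. The matches of C1qc, C1qb and Aif1, which began 193, 30 and 7 bases before the start, lay under no peak in any of the 3 lists. This core was chosen after the promoter sequences had been read, when longer and other motifs had also been considered. In all 3 forms of the PU.1 core were counted, and the count depends on the choice. The form GGAAGT was found in 3 of the 6 windows (50.0%), those of P2ry12, C1qb and C1qc, against 24.8% of the protein-coding windows. The form GAGGAAGT, which contains both of the others, was found in the C1qc window alone (16.7%, against 3.13%). With a core picked in view of the sequences, these counts are a description and support nothing further. A match is a description of the sequence and not a bound site.

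The 10 microglia genes had a peak near their start less often than all protein-coding genes. Where no strand was taken, a peak near either end counted. The gap was small in EXT replicate 1 and for a peak in at least 1 list. In at least 1 of the lists 5 genes had a start-window peak, against 60.4% of all protein-coding genes. Such a peak was present for 4 genes in EXT replicate 1, for 2 in EXT replicate 2 and for 1 in RC replicate 3. These shares of 40.0%, 20.0% and 10.0% compare with 50.4%, 57.5% and 52.6% of all protein-coding genes in the same lists. The 4 genes of EXT replicate 1 were Csf1r, Spi1, C1qc and Trem2, those of EXT replicate 2 were Spi1 and C1qa, and that of RC replicate 3 was Spi1. All peaks that counted for Spi1 and C1qa lay at what is known to be the 3′ end of the gene. With these 2 genes read in their known orientation, an alternative added after the data were seen, 3 genes in EXT replicate 1 and 0 in EXT replicate 2 and RC replicate 3 had a peak near the start. Cx3cr1, P2ry12, Tmem119, Aif1 and C1qb had none in any list, a pattern shared by 8658 protein-coding genes (39.6%). Of the 6 genes with a strand, 2 had a start-window peak in EXT replicate 1, 0 in EXT replicate 2 and 0 in RC replicate 3, against 50%, 56.4% and 52% of all protein-coding genes with a strand. A peak over the start position itself was found for Trem2 in EXT replicate 1 and for no other of the 6 genes with a strand, while such peaks covered 34.5%, 42.9% and 36.7% of all starts with a strand in EXT replicate 1, EXT replicate 2 and RC replicate 3. The counts depended on the settings: they were 1, 2 and 0 with −log10 q of at least 5 and 5, 3 and 3 with windows of 2 kb, where all protein-coding genes reached 55.6%, 62.9% and 58.1%. In such a pool of cells, a few open cells and weak opening in many cannot be told apart.

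**Figure D1:**
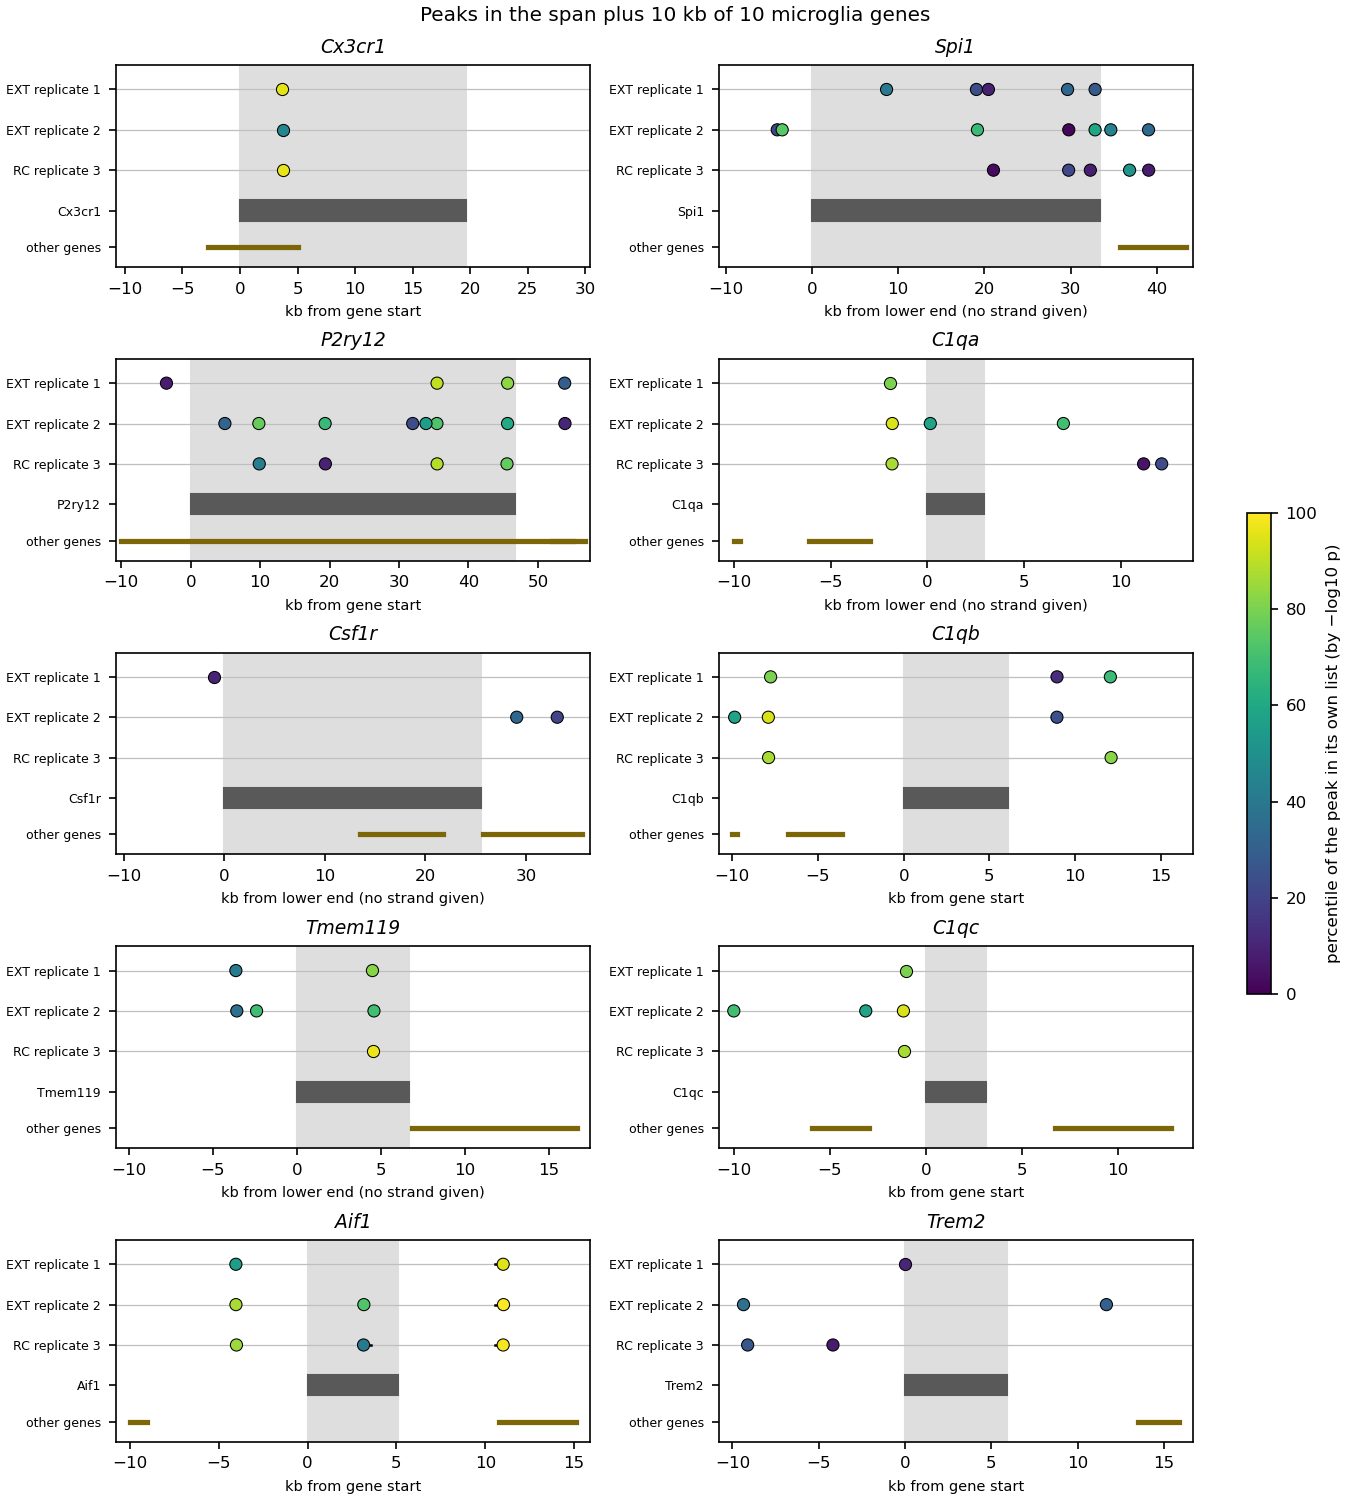
Peaks around each of the 10 microglia genes, with distance in kb from the gene start (from the lower end where no strand is given) on the horizontal axis and the lists of EXT replicate 1, EXT replicate 2 and RC replicate 3 on separate lines. Points mark peak summits, coloured by percentile in their own list; short black lines show peak bounds, grey the gene and brown its annotated neighbours. A point lies on the start itself at Trem2 in EXT replicate 1 alone.

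Spi1, the gene of PU.1 (chromosome 2, 91082374 to 91115759), was the sole member counted as open in all 3 lists, a state it shared with 10170 genes (46.5%). The peaks responsible lay at its upper end. They ran from 91115079 to 91115389 in EXT replicate 1, from 91114656 to 91115355 in EXT replicate 2 and from 91114533 to 91114912 in RC replicate 3. Their fold enrichments over the local background of their library, as the authors' peak caller gives them, were 2.74, 3.92 and 2.40. Ranked by −log10 p, they stood at the 27.8th, 59.1st and 8.31st percentile of their own lists. The EXT replicate 1 and RC replicate 3 peaks did not overlap each other, and both overlapped the wide peak of EXT replicate 2. Mouse Spi1 is known to be read from its lower to its upper end, so these are peaks at its 3′ end. No list held a peak within 1 kb of its lower end, where the PU.1 transcript begins.

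Besides these 3′ end peaks, Spi1 carried 4, 2 and 2 intragenic peaks in EXT replicate 1, EXT replicate 2 and RC replicate 3. A region at 91111899 to 91112216 recurred in all 3 lists with folds of 2.92, 2.22 and 2.76, at the 32.6th, 1.63rd and 21.5th percentile. Another, at 91101397 to 91101708, was called in EXT replicates 1 and 2 (folds 2.92 and 5.70) but had no peak in RC replicate 3. Before the gene, EXT replicate 2 alone had peaks at 91078110 to 91078489 and 91078796 to 91079045, with folds of 3.33 and 6.76. Beyond the upper end, a peak of EXT replicate 2 at 91116947 to 91117173 lay in the start window of the neighbour Mybpc3, a cardiac myosin-binding protein gene.

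Csf1r encodes the receptor for the growth factors CSF-1 and IL-34, on which microglial survival depends (chromosome 18, 61105572 to 61131139). It was the single locus of the 10 that lacked any peak in 1 of the lists. EXT replicate 1 had 1 peak there, 150 bp wide, at 61104453 to 61104602, whose nearer edge was 970 bp from the lower end of the gene. Its fold was 2.86 and it stood at the 10.1st percentile of that list. EXT replicate 2 had 2 peaks, with folds of 3.27 and 3.01, and both lay inside the neighbouring gene Hmgxb3. RC replicate 3 had no peak in the window of 45568 bp, and the nearest was 12670 bp from an end of the gene. No list held a peak within the Csf1r span itself.

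Cx3cr1 is the receptor for the neuronal chemokine fractalkine and P2ry12 the purine receptor that steers microglial processes toward ATP. Neither had a start-window peak. Cx3cr1 (chromosome 9, 120048683 to 120068296, minus strand) held 1 peak per list and all 3 were at the same place, 120064551 to 120064710 in EXT replicate 1 and RC replicate 3 and 120064551 to 120064700 in EXT replicate 2. Its folds were 10.9 in EXT replicate 1, 4.80 in EXT replicate 2 and 12.0 in RC replicate 3, and its percentiles 95.6, 45.9 and 96.4. It lay 3586 bp into the gene, or 3596 bp in EXT replicate 2, where the lncRNA gene Gm33858 runs on the other strand. No peak lay in the 10 kb on either side.

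The P2ry12 gene (chromosome 3, 59216271 to 59262985, minus strand) lies wholly inside Med12l, a gene of the Mediator family read from the other strand, so every peak in its window is also a Med12l peak. The window held 4 peaks in EXT replicate 1, 8 in EXT replicate 2 and 4 in RC replicate 3, of which 2, 7 and 4 were intragenic. A peak recurred with the same bounds in all 3 lists at 59217327 to 59217488, with folds of 7.08, 5.87 and 6.5. A second, ending at 59227626 in each list, had folds of 7.93, 6.61 and 7.90. The peak nearest to the start was 3429, 4710 and 9794 bp away. A peak inside P2ry13, the neighbouring purine receptor gene, was called in both EXT lists with a fold of 3.20 in each, at the 29.4th and 10.6th percentile, and had no counterpart in RC replicate 3.

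Trem2 encodes a lipid-sensing receptor of microglia (chromosome 17, 48346401 to 48352276, plus strand). The EXT replicate 1 peak over its start ran from 48346359 to 48346621, with a fold of 2.88 at the 10.4th percentile of that list, and no peak of another list overlapped it. EXT replicate 2 and RC replicate 3 had 2 peaks each in the Trem2 window, all outside the gene, and none of these overlapped a peak of another list. The nearest was 9282 bp from the start in EXT replicate 2 and 4115 bp in RC replicate 3. The pattern of a start-window peak in EXT replicate 1 alone was shared with Csf1r, C1qc and 221 protein-coding genes in all (1.01%).

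Tmem119, a membrane protein used as a microglial marker, had no start-window peak (chromosome 5, 113793729 to 113800396). It had a single intragenic peak with the same bounds in all 3 lists, 113798218 to 113798377, with folds of 6.92 and 6.90 in EXT replicates 1 and 2 and 12.3 in RC replicate 3. It stood at the 81.9th, 69.9th and 97.2nd percentile. Its nearer edge was 2019 bp from the upper end of the gene. A flanking peak that began at 113790060 was called in EXT replicates 1 and 2, with folds of 3.86 and 4.23, and not in RC replicate 3.

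Aif1 encodes the calcium-binding protein Iba1, the usual stain for microglia (chromosome 17, 35170986 to 35176083, minus strand). The strongest peak in its window belonged to a neighbour: it lay at the start of Prrc2a, with folds of 5.34, 9.56 and 7.10 and percentiles of 94.9, 99.4 and 98.6. The peak nearest to the Aif1 start was 3962 bp away in EXT replicate 1, 2927 bp in EXT replicate 2 and 3022 bp in RC replicate 3. The nearest peak in EXT replicate 2 and RC replicate 3 lay inside Aif1, at 35172781 to 35173156 in EXT replicate 2 (fold 4.41) and 35172543 to 35173061 in RC replicate 3 (fold 3.21), which EXT replicate 1 lacked. A flanking peak that began at 35180045 was called in all 3 lists, with folds of 4.37, 8.61 and 6.81.

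The 3 C1q chains, which assemble into the recognition molecule of the classical complement pathway, are encoded side by side on chromosome 4 in the order C1qb, C1qc and C1qa. Their windows overlap, so a peak there can count for several of them. An accessible region between C1qc and C1qa was the most prominent of the cluster. It ran from 136893850 to 136894122 in EXT replicate 1, from 136893949 to 136894182 in EXT replicate 2 and from 136893949 to 136894129 in RC replicate 3. Its folds were 6.31, 11.9 and 7.91, at the 80.3rd, 94.3rd and 86.9th percentile of its lists. Its nearer edge lay 914 bp before the C1qc start in EXT replicate 1, which put it inside the start window. In EXT replicate 2 and RC replicate 3 the distance was 1013 bp, just outside, so the call of C1qc in a single list rests on the window limit.

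None of the C1q genes had an intragenic peak outside a start window. The peak that counted for C1qa (136895916 to 136898844) in EXT replicate 2 lay at its lower end, at 136896028 to 136896187, was 160 bp wide and had a fold of 4.88, a pattern of EXT replicate 2 alone that 4.89% of protein-coding genes had. The C1q genes are known to share 1 orientation, so this is the 3′ end of C1qa. The peak thus lies inside the gene, and it was not counted as intragenic only because either end was taken as a start. C1qb (136880126 to 136886200, minus strand) had its nearest peak 7650 bp from the start in EXT replicate 1 and 7749 bp in the other lists. A peak at 136874066 to 136874226 beyond its 3′ end had the same bounds in EXT replicate 1 (fold 5.01) and RC replicate 3 (fold 6.72).

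**Figure D2:**
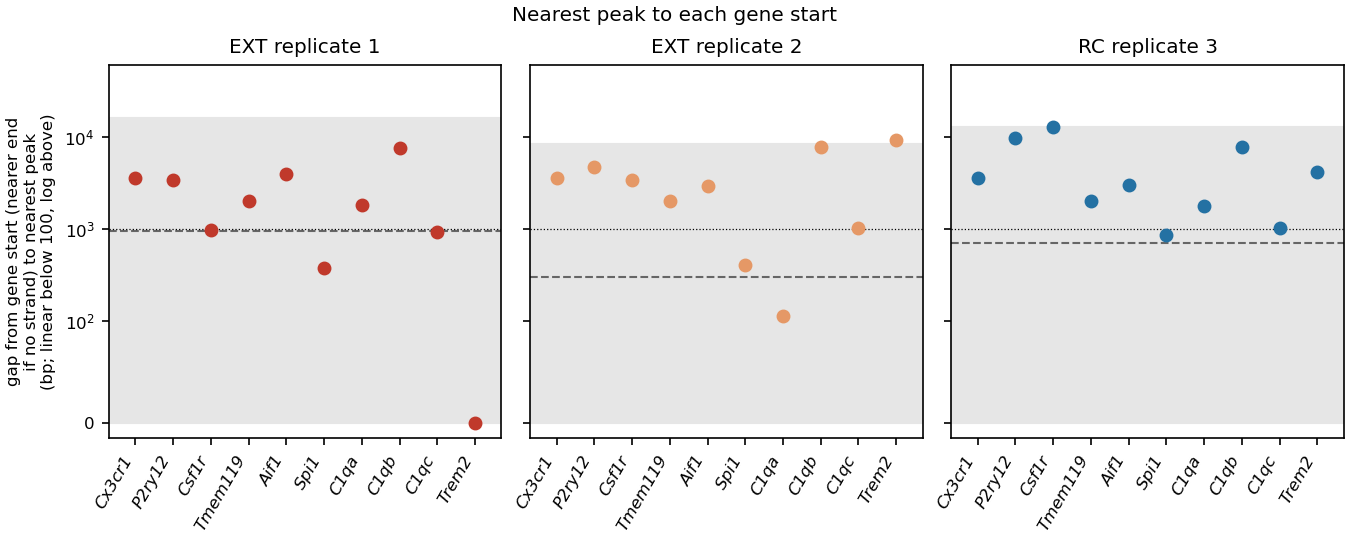
Distance in bp from each gene start, or from the nearer gene end where no strand is given, to the nearest peak in EXT replicate 1, EXT replicate 2 and RC replicate 3 (linear below 100 bp, log above). The grey band spans the 25th to 75th percentile of all protein-coding genes, the dashed line is their median, and the dotted line marks 1 kb. Most points lie above the dashed line in each panel.

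Peaks lay farther from microglial starts than from those of a typical gene. Where no strand was taken the nearer end counted, which for Spi1 and C1qa was the 3′ end. The median distance over the 10 genes was 1910 bp in EXT replicate 1, 3150 bp in EXT replicate 2 and 3300 bp in RC replicate 3, against 936, 302 and 697 bp over all protein-coding genes. For the 6 genes with a strand the median was 3510, 4150 and 3850 bp, against 1000, 314 and 752 bp over all protein-coding genes with a strand. Over the 10 excitatory neuron genes the median distance was 1.5, 1.5 and 69.0 bp. Away from the starts the loci were closer to the background, or above it. The shares with a peak anywhere in the window and the peak densities were above it in each list. The intragenic shares were below it in each list. A peak in the C1q cluster can count for several of the genes. A peak somewhere in the span plus 10 kb was present for 10, 10 and 9 of the 10 genes, against 76.6%, 80.8% and 78.4% of all protein-coding genes. The median number of peaks per 10 kb of window was 0.518, 1.17 and 0.683 for the microglia genes and 0.493, 0.760 and 0.612 for all protein-coding genes. Intragenic peaks outside a start window were present for 4, 5 and 5 of the 10 genes, against 47.8%, 54.8% and 51.2%. Flanking peaks were present for 5, 9 and 6, against 52.9%, 63.1% and 57.2%.

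Of 19, 30 and 20 distinct peaks in the windows, 6, 13 and 8 lay inside an annotated gene that was not one of the 10; no such count was made for other loci. Peaks under 200 bp, near the 150 bp to which tags were extended, made up 52.6%, 43.3% and 55.0% of these peaks, against 48.1%, 39.5% and 48.8% of the whole lists. This limit was applied to the widths after the data were seen, following a first range of 150 to 162 bp, the width of the recurring P2ry12 peak. In that range lay 36.8%, 36.7% and 40.0% of the peaks in the windows, against 36.8%, 29.8% and 39.3% of the whole lists. The median fold was 3.47, 4.61 and 3.46, against 3.70, 4.41 and 3.87 over all peaks of the lists. The recurring peaks of Cx3cr1 and Tmem119, that of P2ry12 at 59217327 and that in the Aif1 flank at 35180045 were that narrow in each list. The part of this narrow class in the result was not tested.

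**Figure D3:**
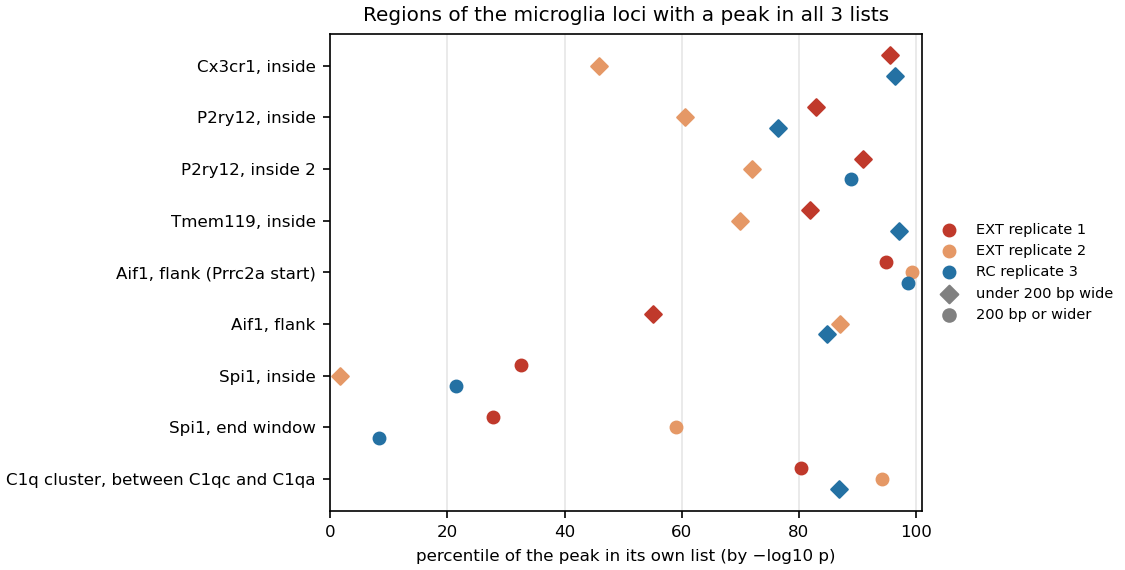
The 9 regions of the microglia loci with a peak in all 3 lists, each peak placed by its percentile in its own list (by −log10 p) for EXT replicate 1, EXT replicate 2 and RC replicate 3. Diamonds are peaks under 200 bp and circles wider ones. The Prrc2a start in the Aif1 flank lies between the 94.9th and 99.4th percentile, the Spi1 regions between the 1.63rd and 59.1st, and the C1q region between the 80.3rd and 94.3rd percentile.

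The EXT and RC lists did not part cleanly at these loci. Merging the peaks of the 3 lists gave 42 regions, of which 4 (9.52%) were called in both EXT libraries while RC replicate 3 had none, against 4.34% of all 168512 merged regions. These were the regions of Spi1 at 91101397, of P2ry12 in P2ry13, of Tmem119 at 113790060 and of C1qb at 136877119. Called in RC replicate 3 alone were 6 regions (14.3%, against 10.7%), and called in all 3 lists were 9 (21.4%, against 25.8%). The largest class, 24 regions (57.1%, against 49.3%), was called in a single list, and 13 of these were of EXT replicate 2, the longest list. The mean number of genes with a start-window peak was 3.00 ± 1.41 in EXT (SD, n = 2) and 1 in the RC library. The gap between the EXT libraries, 4 and 2, was as large as the difference between the groups.

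Other microglia genes were also open at their starts less often than all protein-coding genes. Of 16 further genes of this lineage, 5, 4 and 5 had a start-window peak in EXT replicate 1, EXT replicate 2 and RC replicate 3. These shares of 31.2%, 25% and 31.2% compare with 50.4%, 57.5% and 52.6% of all protein-coding genes. Olfml3, a secreted protein, and Irf8, a transcription factor of myeloid cells, had 1 in all 3 lists, and a peak covered the Irf8 start in each. Siglech, Sall1, Gpr34, P2ry13, Fcrls, Tyrobp, Itgam, Ctss, Laptm5 and Runx1 had none in any list. Tyrobp encodes the signalling partner of Trem2, and its nearest peak was 3926, 4419 and 4621 bp from an end. Ptprc, Cd68 and Selplg were called in some lists and not in others.

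Genes for signals that microglia receive were open at their starts about as often as all protein-coding genes. Of 6 such genes, 3 (50%) had a start-window peak in each of the lists, against 50.4%, 57.5% and 52.6% of all, and they were the same genes: Cx3cl1, which encodes fractalkine, Csf1 and Cd200. A peak covered the start of Cx3cl1 and of Cd200 in all 3 lists. Il34, Cd47 and Apoe had no start-window peak in any list.

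**Figure D4:**
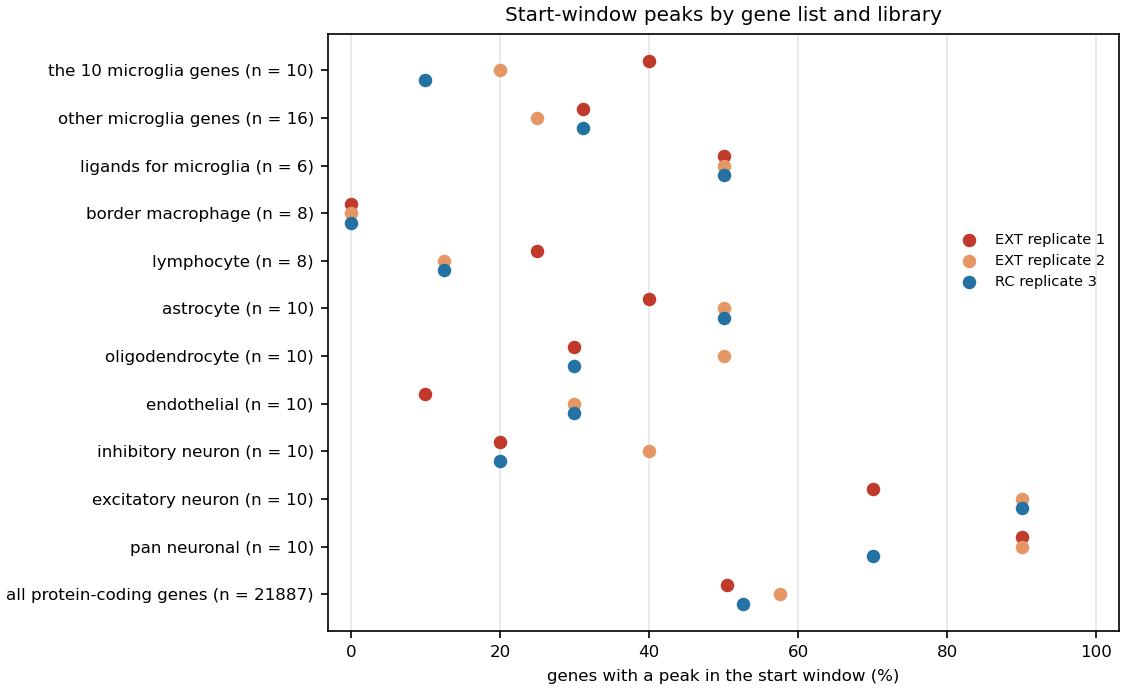
Share of genes with a start-window peak, in percent, for the 10 microglia genes, 10 other lists and all protein-coding genes in EXT replicate 1, EXT replicate 2 and RC replicate 3. The microglia genes lie at 40.0%, 20.0% and 10.0%, and all protein-coding genes at 50.4%, 57.5% and 52.6%.

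Genes of other cell types were set beside the same shares of all protein-coding genes. Of 10 endothelial genes 1, 3 and 3 had a start-window peak, with Cldn5 in all 3 lists and Pecam1, Flt1 and Tek in none. Of 10 astrocyte genes 4, 5 and 5 had 1, with Slc1a2, S100b and Sox9 in all 3 and Gfap, Aqp4 and Aldh1l1 in none. Of 10 oligodendrocyte genes the numbers were 3, 5 and 3, with Sox10, Olig1 and Cnp in all 3 and Olig2 and Mog in none. Of 10 inhibitory neuron genes 2, 4 and 2 had a start-window peak, with Lhx6 in all 3 and Gad2, Slc32a1 and Sst in none. The endothelial, astrocyte, oligodendrocyte and inhibitory neuron shares were all below those of all genes, 50.4%, 57.5% and 52.6%, in each list. The astrocyte shares of 40%, 50% and 50% were nearer to them than the endothelial and inhibitory neuron shares. In each library the count of microglia genes, 4, 2 and 1 of 10, was below those of the excitatory and pan-neuronal lists. In EXT replicate 1 it equalled the astrocyte count and was above the oligodendrocyte, inhibitory neuron and endothelial counts. In EXT replicate 2 and RC replicate 3 it was below all of these counts. With the inhibitory neuron shares also below those of all genes, a low share was not particular to non-neuronal lists. No test of these differences was made.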

How the data were processed

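The authors ran MACS 2.2.4 on single libraries, per the file headers, without a control, with a shift of -75 bp and an extension to 150 bp per tag, duplicates kept and a q-value cutoff of 0.05. Per the submitters' processing notes the build is mm10, with the aligner of these libraries not given in the sources used here. The deposited pileup is a coverage signal in whole tags at the summit. The deposited fold enrichment is its ratio to that library's local background, and the deposited −log10 p and q values rest on that background. Duplicate tags kept in calling can raise narrow peaks. These values were used only within their own list. Total tags came from the headers; reads were not counted by region, so the spread between libraries is the only error given. The lists of RC replicates 1 and 2 end in mid-line on chromosome 1, and EXT replicate 3 and the 6 capture libraries were not analysed here.

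Genes came from a RefSeq table of GRCm38.p6, the same build as mm10, and strands from its promoter table. Peaks in the span plus 10 kb on each side were sorted, by an overlap of at least 1 bp, into start-window (1 kb either side of the start), intragenic and flanking peaks. The PU.1 cores searched in the promoters and the limits on narrow peaks were chosen after the sequences and widths were seen, and each one counted is reported. Overlap counting was tested on simulated data. Python 3.11.15, numpy 2.4.6 and pandas 2.3.3 were used. The 10 genes and the other gene lists were chosen with earlier results of these data known. All 10 genes were named, with every listed microglia or ligand gene open in all or no lists, up to 3 genes of each other list, and neighbours with a peak at their start; genes named beyond these were chosen after their values were seen, and some genes that this rule names are not reported here. No test between groups was made, since 2 lists against 1 allow no exact permutation p under 0.333.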

Additional observations from a re-analysis of the deposited data

How the results depend on the processing

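No paired analysis was possible because the complete lists, EXT replicates 1 and 2 and RC replicate 3, share no replicate number. The number of the 10 genes with a start-window peak, main values 4, 2 and 1 in EXT replicate 1, EXT replicate 2 and RC replicate 3, 5 in at least 1 list and 1 in all lists, depended on most settings. With −log10 q of at least 5 it was 1, 2 and 0 (3 in at least 1 list, 0 in all), where 45.6%, 55.1% and 48.7% of all protein-coding genes were called. With windows of 500 bp it was 2, 2 and 0 (3 and 0), against 45.9%, 52.9% and 47.8% of all protein-coding genes. The same counts came with the summit required in the window. With windows of 2 kb it was 5, 3 and 3 (5 and 3), against 55.6%, 62.9% and 58.1% of all genes. Lists of equal length gave 4, 2 and 0 (0 in all), and peaks of at least 200 bp 3, 1 and 1 (3 in at least 1 list). No share of all genes is given for the summit, equal-length and 200 bp settings, so a general fall cannot be separated there. Settings added after the data were seen gave 2, 0 and 0 for genes with a strand alone (2 and 0), 1, 0 and 0 for peaks over the start position (1 and 0), where the EXT minus RC difference was 0.5 in place of 2, 3, 0 and 0 (3 and 0) with the known orientation of Spi1 and C1qa, and no change with all listed starts. Taking either end of every gene changed no count. Without 1 library, 2 to 5 genes were open in at least 1 list (2 without EXT replicate 1), 1 in all lists, and the EXT minus RC difference was 1 to 3. The numbers of peaks in the windows, 19, 30 and 20, were 10, 26 and 12 with −log10 q of at least 5, 9, 17 and 9 with peaks of at least 200 bp, and 33, 48 and 35 with flanks of 20 kb. Of 92 recomputed values, 42 moved beyond the limit of 1.5 times, or 1 SD for the difference. The cause was not tested.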

Other observations

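Genes of other immune cells that a brain sample can hold had no start-window peak in most cases. Of 8 genes of border-associated macrophages, 0 had a start-window peak in EXT replicate 1, EXT replicate 2 or RC replicate 3, with Mrc1, Lyve1 and Cd163 among them. Their median distance to the nearest peak was 21000, 15400 and 7500 bp. All protein-coding genes had shares of 50.4%, 57.5% and 52.6% and median distances of 936, 302 and 697 bp. Of 8 lymphocyte genes, 2, 1 and 1 had a start-window peak (25%, 12.5% and 12.5%). Cd2, an adhesion receptor of T cells, had 1 in all 3 lists, and Cd3e, Cd3d and Cd79a in none.

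Peaks with the same bounds to the base in all 3 lists numbered 5502, or 6.81%, 4.46% and 5.62% of the lists of EXT replicate 1, EXT replicate 2 and RC replicate 3. In the windows of the microglia genes there were 2 of them, at Tmem119 and P2ry12.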
